A study of Mus musculus with 6 samples.

Results

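Brown fat thermogenic genes are the genes that let an adipocyte burn fuel for heat. The set described here has 10 members, fixed by name: Ucp1, Dio2, Ppargc1a, Ppargc1b, Prdm16, Cox8b, Cox7a1, Cidea, Adrb3 and Pank1. A gene was measured when the array annotation tied a probe set to its symbol alone, and where several did, the one with the highest average across the 6 arrays stands for the gene. In this way 9 of the 10 members were followed, among 18193 genes in all, through 21 probe sets, and Adrb3 is not analysed here. The glands were whole mammary glands from FVB/N females, virgin and 4 months of age: 3 wild-type (WT) and 3 Caveolin-3 knockout (Cav-3KO), each on 1 single-channel array. Caveolin-3 shapes caveolae in muscle. The sources used here give neither how the knockout allele was made nor whether each gland came from a separate mouse, so p-values measure the spread between these samples, which may be technical.

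In brown and beige adipocytes, noradrenaline from sympathetic nerves acts on beta-adrenergic receptors and raises cAMP. The signal releases fatty acids and induces UCP1, which lets protons back across the inner mitochondrial membrane so that respiration gives heat in place of ATP. The mouse mammary gland lies in a fat pad whose adipocytes are mostly white, with a minor share of UCP1-bearing cells.

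In the knockout glands Ucp1, Ppargc1a, Pank1 and Cox8b were lower, each by at least 2-fold, as were 1.31% of all genes. These were 4 of the 9 measured members, against 8.51% of all genes that were called lower, and 0 members were called higher, against 7.65% of all genes (limma, Benjamini-Hochberg adjusted p under 0.05 over all probe sets). At an unadjusted p under 0.05, 7 members were lower and 0 higher. The share of all genes at that unadjusted threshold was not counted, so such counts, here and for the lists below, stand without a background. All 9 differences were below 0, from −3.36 to −0.06 on the log2 scale, with a median of −1.12 against −0.01 for all genes. For 5 members, the called genes and Cox7a1, every knockout array lay below every wild-type array, an order that 19.8% of all genes showed. These values come from whole tissue, where fewer cells of a type and less RNA per cell cannot be told apart.

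Median log2 signal ranged over 5.77 to 5.80 among arrays, and the number of arrays, 3 per genotype, limits the precision. The Cav3 probe set itself read 4.74 to 5.02 in wild type and 4.72 to 4.83 in knockout (−0.08 ± 0.10, SE, adjusted p = 0.679, limma), a level also reached by probe sets of Y-linked genes, whose means spanned 2.04 to 6.16. It therefore does not check the genotype labels, and where it lies relative to the deleted part is not known here. One wild-type array, wild-type 3, stands apart for several of the thermogenic genes, and values without it are given for those.

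**Figure D1:**
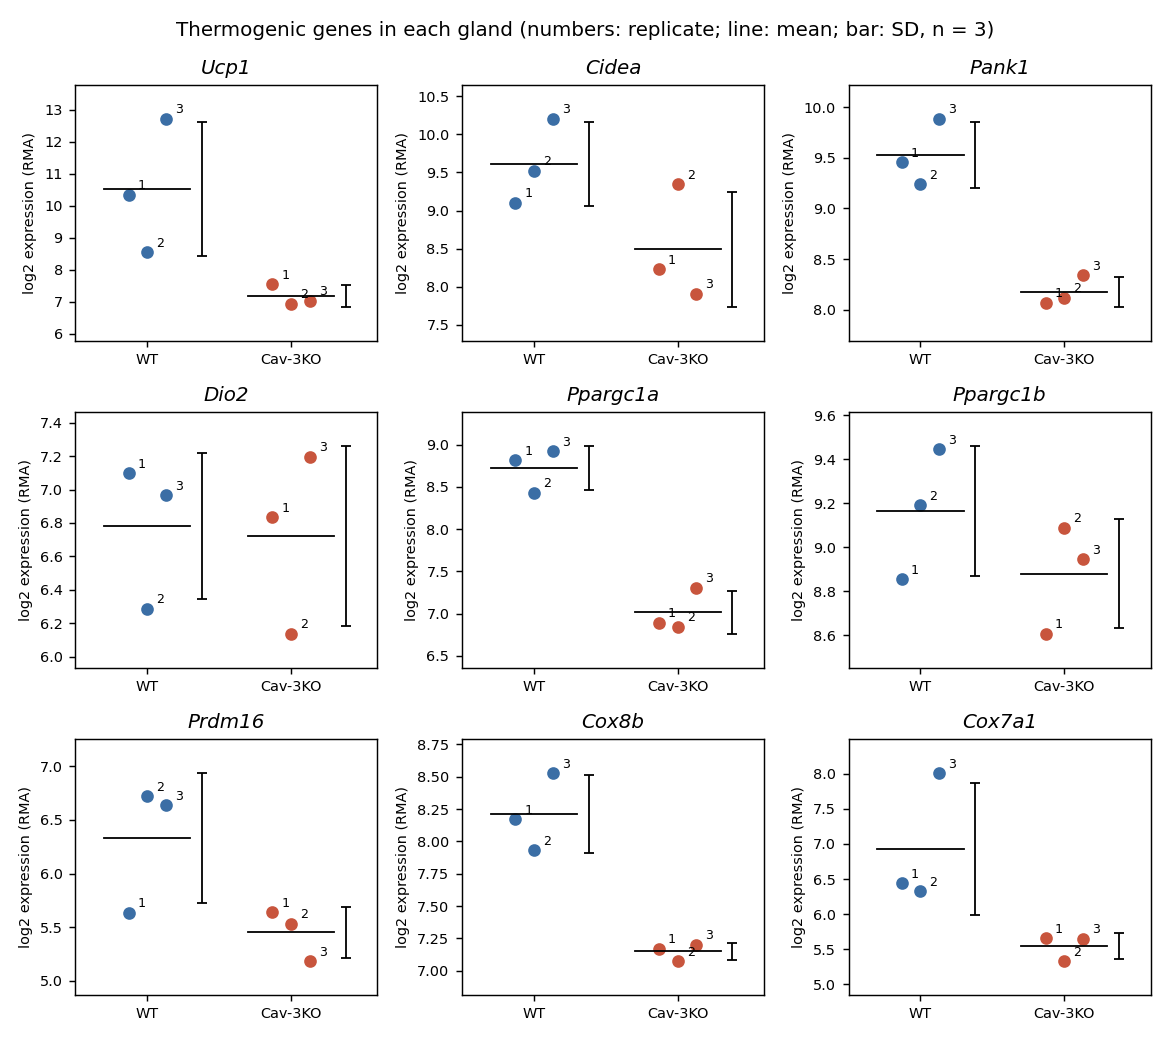
Log2 expression (y axis, RMA values, own scale in each panel) of the 9 measured thermogenic genes in 3 wild-type (blue) and 3 Cav-3KO (red) glands, with replicate numbers, the group mean (line) and the SD (bar, n = 3). The groups are apart for Ucp1, Pank1, Ppargc1a, Cox8b and Cox7a1 and overlap for Cidea, Dio2, Ppargc1b and Prdm16.

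The promoters of 3 members are shown because cAMP is the signal that turns the thermogenic genes on, and these are the members whose 250 bases before the RefSeq start hold the core of a cAMP response element. Capitals mark TGACG or its reverse CGTCA, and AGGTCA, a core bound by nuclear receptors, or its reverse TGACCT. Both strands were searched. Sequences are from RefSeq, build GRCm38.p6, and run 5′ to 3′ on the strand of the gene: Ucp1 at chr8:83290098-83290347 (plus strand), Ppargc1a at chr5:51567726-51567975 (minus strand) and Dio2 at chr12:90739039-90739288 (minus strand).
Ucp1: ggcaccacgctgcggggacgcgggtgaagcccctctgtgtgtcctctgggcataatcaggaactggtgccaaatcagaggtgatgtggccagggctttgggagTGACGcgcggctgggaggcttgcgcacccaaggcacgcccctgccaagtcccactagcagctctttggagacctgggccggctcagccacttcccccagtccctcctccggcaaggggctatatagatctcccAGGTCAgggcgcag
Ppargc1a: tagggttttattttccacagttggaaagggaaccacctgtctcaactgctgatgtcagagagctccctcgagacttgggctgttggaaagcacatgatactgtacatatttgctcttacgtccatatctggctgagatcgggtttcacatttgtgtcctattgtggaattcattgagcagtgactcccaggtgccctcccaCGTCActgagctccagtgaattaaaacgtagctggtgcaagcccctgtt
Dio2: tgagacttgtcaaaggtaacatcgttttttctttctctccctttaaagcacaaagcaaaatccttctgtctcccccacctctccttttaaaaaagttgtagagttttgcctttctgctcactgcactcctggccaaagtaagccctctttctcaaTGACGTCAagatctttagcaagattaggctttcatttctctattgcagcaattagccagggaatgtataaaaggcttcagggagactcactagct

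RefSeq gave such windows for 7 members. The Dio2 window holds the full palindrome TGACGTCA, in which the core on one strand overlaps the core on the other, and 1.55% of 32851 promoter windows of this length hold it. The shorter core was found in 17.8% of those windows, and AGGTCA in 14%. By the probe sets that stand for the genes, Dio2, the member with the palindrome, differed least between the genotypes (−0.06). Another probe set of Dio2 differed by −0.65. Whether these letters bear on the differences was not tested. The windows of Prdm16, Cox7a1, Cox8b and Pank1 hold none of these letters.

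Ucp1, the uncoupling protein itself, had log2 values of 10.35, 8.54 and 12.72 in wild-type 1 to 3, and of 7.56, 6.94 and 7.04 in knockout 1 to 3. The lowest wild-type gland lay 0.98 above the highest knockout gland, and the wild-type glands were far more scattered (SD 2.09, n = 3) than the knockout glands (SD 0.33). The difference was −3.36 ± 0.88 (SE, adjusted p = 0.0453, limma), which is 10.3-fold lower in knockout, with a two-sided exact permutation p of 0.1, the smallest that 3 against 3 arrays allow. Only 2 of 18193 genes had a lower difference. Without wild-type 3 the difference was −2.27 (adjusted p = 0.0475, limma), and without wild-type 2 it was −4.36 (0.0142). The call was lost when wild-type 1 was left out (adjusted p = 0.101, limma) and when knockout 1, 2 or 3 was (0.0834, 0.0843 and 0.136). It was also lost with a trended, robust variance prior (adjusted p = 0.154, limma) and with each gene's probe sets averaged (0.0520). Ucp1 has only 1 probe set, so its own values and difference were unchanged by that averaging.

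Ucp3, the muscle and fat relative of Ucp1, was 7.77, 8.40 and 7.93 in wild type and 6.93, 8.61 and 6.97 in knockout, and did not pass the test (−0.53 ± 0.43, adjusted p = 0.485, limma). Of 12 measured genes of uncoupling relatives, creatine cycling and calcium pumping, 1 was lower and 1 higher. Ckb, the brain-type creatine kinase that also works in the creatine cycle of fat, fell by 0.43 ± 0.09 (SE). Ckmt1, a mitochondrial creatine kinase, rose by 0.71 ± 0.16 from wild-type values of 3.65 to 4.09. These counts lay between 0 and 2 lower and between 0 and 1 higher when any 1 array was left out. In those fits 3.33% (without knockout 3) to 8.04% (without knockout 2) of all genes were called lower. The share called higher was 3.46% to 9.44% in the same 2 fits. These shares stand behind all list counts with an array left out.

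Ppargc1a encodes PGC-1alpha, the coactivator that links cAMP to mitochondrial and thermogenic genes. Its log2 values were 8.82, 8.43 and 8.92 in wild type and 6.89, 6.85 and 7.31 in knockout. The groups were 1.12 apart at their nearest arrays, beside an SD of 0.26 in wild type and 0.25 in knockout. It fell by 1.71 ± 0.17 (SE, adjusted p = 0.00165, limma), 3.27-fold. All 5 of its probe sets were called lower and fell by 1.27 to 1.71, and in each of them the groups were apart. Over the members together, 11 of 21 probe sets were lower and 0 higher, against 6.57% and 5.74% of all probe sets, and in 13 of 21 every knockout array lay below every wild-type array, against 17.2% of all probe sets. The opposite order was found in 0 of 21, against 15.4% of all probe sets. Most of the lower sets are of Ppargc1a and Pank1, and sets of the same gene are not separate observations. Among the members Ppargc1a is also one of 3, with Pank1 and Cox8b, that kept their call whichever array was left out. Its difference then lay between −1.86 and −1.61.

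Ppargc1b encodes PGC-1beta, a coactivator of mitochondrial and lipid genes that cAMP does not induce in the same way. It was 8.86, 9.19 and 9.45 in wild type and 8.61, 9.09 and 8.95 in knockout. The groups overlap, and the difference of −0.29 ± 0.18 (SE, adjusted p = 0.352, limma) had a 95% interval from −0.69 to 0.12. With single arrays left out it lay between −0.44 (wild-type 1) and −0.14 (wild-type 3). Pprc1, the third gene of the coactivator family, differed by 0.45 ± 0.18 (adjusted p = 0.151, limma).

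Prdm16, a zinc finger regulator that sets and keeps brown and beige adipocyte identity, was 5.63, 6.72 and 6.64 in wild type and 5.64, 5.53 and 5.18 in knockout. Wild-type 1 sat level with knockout 1, and the other wild-type glands lay above all knockout glands. The difference was −0.88 ± 0.28 (SE, adjusted p = 0.0814, limma) and passed without wild-type 1 (−1.23, adjusted p = 0.00923). It passed with no other array left out, from −0.97 without knockout 1 to −0.68 without wild-type 2 (adjusted p = 0.115 and 0.217, limma). The other 3 probe sets of Prdm16 gave −0.21, 0.07 and −0.22, and 0 of its 4 sets passed, so the difference rests on the set that stands for the gene. With the sets averaged it was −0.31.

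Of 30 transcription factors and coregulators of thermogenic fat, 6 were lower and 2 higher. Pparg, the master regulator of all adipocytes, fell by 1.11 ± 0.13 (SE), Rxrg, a retinoid X receptor, by 1.06 ± 0.13, and Ebf2, a factor that marks brown and beige precursors, by 0.80 ± 0.14. Klf11 rose most, by 1.57 ± 0.13, and Ctbp2, a corepressor, rose by 0.82 ± 0.12. The median of the list was −0.08, or −0.15 to −0.04 with single arrays left out, with 3 genes lower without wild-type 3 or without knockout 3, and 4 higher without knockout 1. Of the nuclear receptors that PGC-1alpha serves, Ppara was 8.27, 7.74 and 9.77 in wild type and 7.72 to 8.01 in knockout (−0.72 ± 0.45, adjusted p = 0.349, limma), with wild-type 3 alone well above the rest, and Esrra differed by −0.29 ± 0.10 (adjusted p = 0.1004). Both, like Nrf1 and Tfam (0.06 and 0.05), were singled out after their values were seen.

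**Figure D2:**
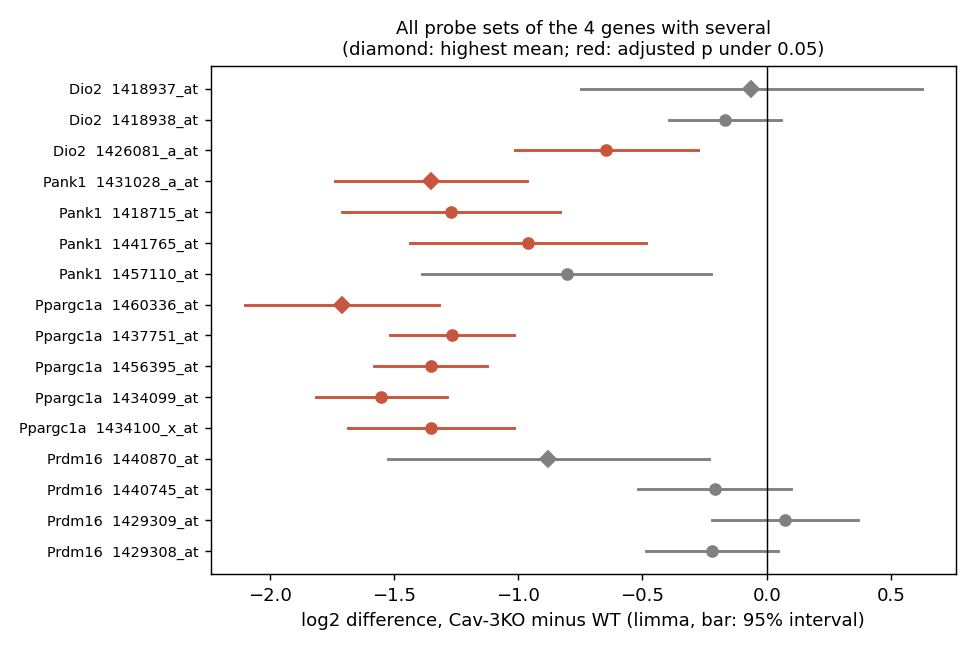
Log2 difference, Cav-3KO minus WT (x axis, limma estimate with 95% interval), for each probe set (y axis) of the 4 members with several; diamonds mark the set with the highest mean, red marks an adjusted p under 0.05 and grey the rest. All 5 sets of Ppargc1a and 3 of 4 sets of Pank1 are lower, 1 of 3 sets of Dio2 is, and none of the 4 sets of Prdm16 is.

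Dio2 is the deiodinase that makes active thyroid hormone inside the brown adipocyte, where that hormone amplifies the adrenergic signal. The probe set that stands for it read 7.10, 6.29 and 6.97 in wild type and 6.83, 6.14 and 7.20 in knockout. The groups overlap throughout, and the difference was −0.06 ± 0.30 (SE, adjusted p = 0.927, limma), with a 95% interval from −0.75 to 0.62. Another set disagreed: it was 4.43 to 5.00 in wild type and 3.89 to 4.21 in knockout, with the groups apart, and fell by 0.65 ± 0.16 (adjusted p = 0.0375). The third set differed by −0.17 ± 0.10 (adjusted p = 0.324). The transcripts of Dio2 that each set reads were not looked up.

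Of 7 measured genes of thyroid hormone handling, 3 were lower and 0 higher, and at an unadjusted p under 0.05 there were 4 lower and 0 higher. Crym, which binds thyroid hormone in the cytosol, fell by 1.99 ± 0.39 (SE). Slc16a10, a thyroid hormone and aromatic amino acid transporter, fell by 0.90 ± 0.14, and Thrsp, a thyroid-responsive lipogenic gene, by 0.66 ± 0.10. Dio1, the deiodinase of liver and kidney, read 2.31 to 2.77 on all arrays, below the median of 2.88 over 20 probe sets of Y-linked genes, which female glands do not transcribe. Without wild-type 3 or knockout 3, 2 of the list were lower.

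The first step of the adrenergic route was followed only through its later parts. Of 19 measured genes of adrenergic and cAMP signalling, 4 were lower and 2 higher, with a median of −0.11, and of −0.05 without wild-type 3. Prkaca and Prkar2b, a catalytic and a regulatory subunit of protein kinase A, fell by 1.09 ± 0.18 and 0.95 ± 0.17 (SE), and Pde3b, the phosphodiesterase through which insulin opposes lipolysis, by 0.75 ± 0.17. Nr4a1, a nuclear receptor gene quickly induced by cAMP, rose by 1.08 ± 0.20. Prkar1a, a second regulatory subunit, rose by 0.49 ± 0.09 and is named since it went against Prkar2b. Leaving out wild-type 1, wild-type 3, knockout 1 or knockout 3 left 2 genes lower, and 1 was higher without wild-type 3 or knockout 3.

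Cox8b and Cox7a1 encode the cytochrome oxidase subunit isoforms used in heart, skeletal muscle and brown fat in place of the common Cox8a and Cox7a2. Cox8b was 8.17, 7.93 and 8.53 in wild type and 7.17, 7.08 and 7.20 in knockout. The knockout glands were within 0.07 (SD) of each other and every one lay at least 0.73 below wild type. It fell by 1.06 ± 0.15 (SE, adjusted p = 0.00559, limma), 2.09-fold, and kept the call without any 1 array (−1.20 to −0.90).

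Cox7a1 was 6.44, 6.33 and 8.01 in wild type and 5.65, 5.33 and 5.65 in knockout. The groups were apart by 0.67, with wild-type 3 far above its own group. The difference of −1.38 ± 0.40 (SE) did not pass (adjusted p = 0.0638, limma). Without wild-type 3 it was smaller, −0.84 ± 0.13, and passed (adjusted p = 0.0224, limma).

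Of 12 other cytochrome oxidase subunit genes 0 were lower and 0 higher by limma, and at an unadjusted p under 0.05 there were 7 lower and 1 higher, with a median of −0.29. Leaving out wild-type 3 made 1 of them lower, and leaving out knockout 1 made 1 higher. The common partners Cox8a and Cox7a2 differed by −0.34 ± 0.11 and −0.34 ± 0.12 (SE, adjusted p = 0.0909 and 0.0973, limma). Cox7a2l, which joins respiratory complexes, differed by 0.03 ± 0.09. Whether the isoforms differed from their common partners in the size of change was not tested.

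Cidea, a lipid droplet protein that in mice is abundant in brown fat and in the lactating mammary gland, was 9.10, 9.52 and 10.21 in wild type and 8.22, 9.34 and 7.90 in knockout. Knockout 2 lay inside the wild-type range and the other knockout glands below it. The difference of −1.12 ± 0.39 (SE) did not pass (adjusted p = 0.109, limma). Without knockout 2 it was −1.55 ± 0.29 and passed (adjusted p = 0.0178). It passed with no other array left out, from −1.37 without wild-type 1 to −0.82 without wild-type 3 (adjusted p = 0.103 and 0.288, limma). In its family, Cidec, the droplet protein of white fat, fell by 0.68 ± 0.11, and Cideb, the liver member, differed by −0.36 ± 0.13 (adjusted p = 0.111). Of 8 measured genes of the CIDE family and droplet coat, 3 were lower and 0 higher (6 lower and 1 higher at an unadjusted p under 0.05, limma), among them Fitm2 and Bscl2, which serve droplet formation, by 0.88 ± 0.13 and 0.71 ± 0.10. The count of 3 lower genes held with each array left out in turn.

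Pank1, a pantothenate kinase, makes the committing step towards coenzyme A, the carrier of fatty acids for oxidation. It was 9.45, 9.24 and 9.88 in wild type and 8.07, 8.12 and 8.34 in knockout, so the nearest arrays of the groups were 0.90 apart. It fell by 1.35 ± 0.17 (SE, adjusted p = 0.00375, limma), 2.55-fold. Of its 4 probe sets, 3 were called lower, and the fourth was not, at −0.80 ± 0.25 (adjusted p = 0.0779, limma).

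The coenzyme A list around Pank1 had 5 of 11 genes lower and 0 higher (7 and 0 at an unadjusted p under 0.05, limma), with a median of −0.50. Nudt7, a peroxisomal enzyme that degrades coenzyme A, fell most, by 1.20 ± 0.10 (SE). Pank3 fell by 0.61 ± 0.15 and Pank2, the mitochondrial kinase, by 0.32 ± 0.08, while Pank4 differed by 0.03 ± 0.09. The later enzymes of synthesis Ppcs and Coasy fell by 0.66 ± 0.11 and 0.59 ± 0.14. The count was 2 or 3 when any array but knockout 2 was left out, and 2 with the mean of the skeletal muscle list as a covariate. In the covariate fit 6.31% of all genes were lower.

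Genes that supply fuel to brown fat were lower in 11 of 23 cases and higher in 0 (16 and 0 at an unadjusted p under 0.05, limma), with a median of −0.66. Elovl3, a fatty acid elongase, was 8.72, 8.95 and 9.55 in wild type and 5.62, 5.56 and 5.77 in knockout, the widest gap of the list, and fell by 3.42 ± 0.20 (SE). Acot11, a thioesterase of brown fat, fell by 2.12 ± 0.41, Plin5, the droplet coat protein of oxidative tissue, by 1.87 ± 0.24, and the fatty acid transporter gene Slc27a1 by 0.94 ± 0.10. Fabp3, a fatty acid binding protein, went its own way, with 7.08 to 9.99 in wild type and 7.90 to 11.68 in knockout (1.19 ± 0.99, adjusted p = 0.5001, limma), and is named for that reason. The number of lower genes was 4 without knockout 3, and without wild-type 3 there were 9 lower and 2 higher. Of all genes, 3.33% were lower without knockout 3, and 4.45% were lower and 3.63% higher without wild-type 3.

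Among 14 other genes selective for brown adipocytes 4 were lower and 2 higher, with a median of −0.54. Aspg, an asparaginase, fell by 1.82 ± 0.28 (SE), and Kcnk3, a potassium channel gene, fell by 1.78 ± 0.10. Mpzl2 fell by 0.70 ± 0.12, and Eva1b rose by 1.02 ± 0.21. Otop1, 7.19, 8.01 and 9.58 in wild type and 6.35 to 6.90 in knockout, was highest in wild-type 3 and did not pass (−1.66 ± 0.52, adjusted p = 0.0781, limma). Zic1, a transcription factor of classical interscapular brown fat, read 1.98 to 2.17 on all 6 arrays, also below the Y-linked median. Lower genes numbered 3 to 5 and higher genes 1 or 2 when single arrays were left out, and 7 with the muscle covariate.

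Beige adipocyte markers were lower in 4 of 9 cases and higher in 0 (also 4 and 0 at an unadjusted p under 0.05, limma), with a median of −0.67. Tbx1, a transcription factor of beige precursors, fell by 1.24 ± 0.17 (SE), Shox2 by 1.14 ± 0.22, Hoxc9, a positional gene of subcutaneous white fat, by 0.80 ± 0.10, and the hormone gene Fgf21 by 0.67 ± 0.17. Fgf21 was dim, at 4.33 to 4.97 in wild type and 3.88 to 4.15 in knockout, a level also reached by probe sets of Y-linked genes. Tmem26, a surface marker of beige cells, differed by 0.06 ± 0.21. Without wild-type 3 the median was −0.27 with 2 genes lower, and without knockout 3 there were also 2. Of 11 factors that thermogenic fat secretes or responds to, 4 were lower and 1 higher: Nrg4, a growth factor of brown fat, fell by 1.29 ± 0.12, the angiogenic factor Vegfa by 0.60 ± 0.14 and Fgf21 as above, while Angptl4, an inhibitor of lipoprotein lipase, rose by 1.22 ± 0.22. Leaving out any 1 array left 1 or 2 of these factors lower, and 0 were higher without knockout 3 and 2 without knockout 2.

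Most members had the same highest array, which the genotype alone does not describe. Wild-type 3 was the highest of the 6 arrays for 7 of the 9 members, Ucp1, Cidea, Pank1, Ppargc1a, Ppargc1b, Cox8b and Cox7a1, while 19.0% of all genes were highest there. The exceptions were Dio2, highest in knockout 3, and Prdm16, highest in wild-type 2. For Ppargc1a the lead over wild-type 1 was small (8.92 against 8.82), and some of its other probe sets were highest in wild-type 1. Wild-type 3 was also highest for 20 of 23 fuel supply genes, 10 of 14 white adipocyte markers and 9 of 9 B and T cell markers. The fuel supply and white adipocyte lists share genes. Without it, the members called lower were 5, the 4 named first and Cox7a1, against 4.45% of all genes called lower in that fit, and Dio2 was at 0.03.

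**Figure D3:**
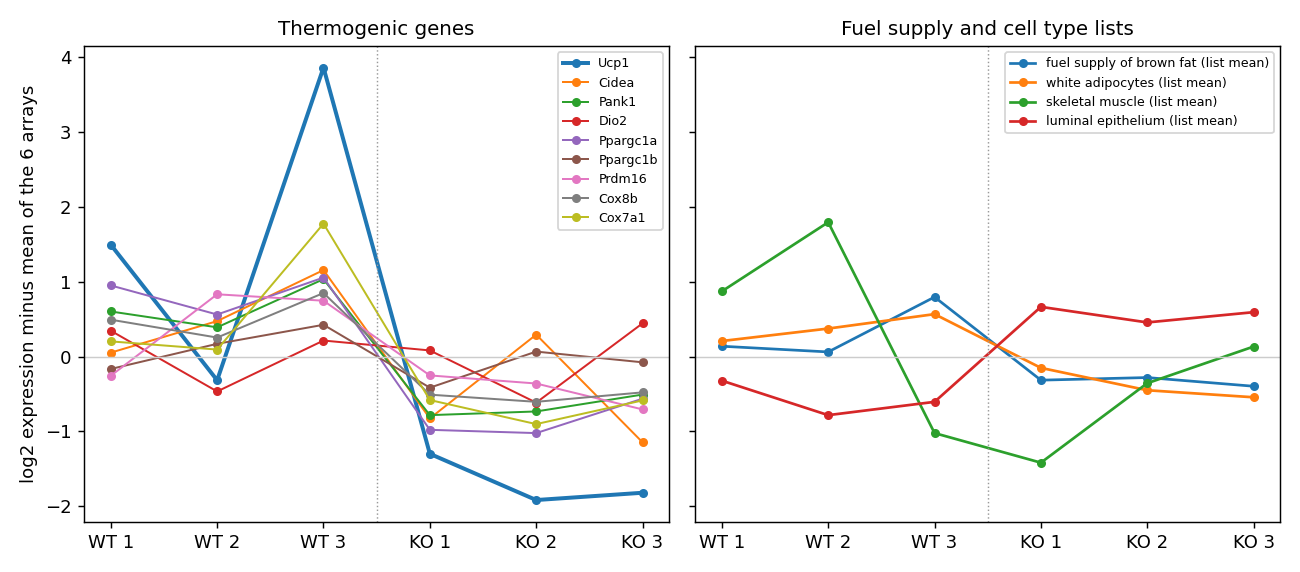
Log2 expression minus the mean of the 6 arrays (y axis) on each array (x axis) for the 9 members (left) and for the means of 4 gene lists (right); lines join the values of 1 gene or list, and replicates have no order. Ucp1 and Cox7a1 peak in wild-type 3, where the skeletal muscle list, highest in wild-type 2, is low.

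Among 18192 other genes, those nearest to Ucp1 over the 6 arrays were Elovl3, Zfp982, Fam25c, Kng1 and Fgb, by the root mean square difference between deviations from each gene's own mean (1.06, 1.08, 1.15, 1.16 and 1.20 on the log2 scale). All 5 had their 3 knockout values below their wild-type values, as Ucp1 did. They were chosen for nearness to Ucp1 on these same arrays, so this order is not a separate result. Kng1, a kininogen gene of liver, was 4.46, 4.41 and 6.30 in wild type and 3.35 to 3.61 in knockout, with wild-type 3 high as for Ucp1. Of the members, Cox7a1 held rank 9 of nearness to Ucp1, at 1.24, and Dio2 was farthest, at 1.97.

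Markers of other cell types moved with the genotype or between arrays. Cox8b, Cox7a1 and Ppargc1a are also active in skeletal muscle, and the mean of 21 muscle genes was 7.49, 8.41 and 5.59 in wild type and 5.20, 6.26 and 6.75 in knockout. Of these, 0 passed in either direction by limma (2 lower and 0 higher at an unadjusted p under 0.05), and 4 were lower without wild-type 3. The slow myosin gene Myh7 read 3.48 to 3.84 throughout, and the fast myosin gene Myh4 5.74 to 12.48. Among wild-type glands the list mean was lowest in wild-type 3, where Ucp1, Cox8b and Cox7a1 are highest. Between the genotypes the list mean differed by −1.09, beside an SD of 1.44 among wild-type glands. With the muscle mean as a covariate the differences were −4.67 for Ucp1 (adjusted p = 0.00443, limma) and −1.79 for Ppargc1a (0.00712). For Cox8b and Cox7a1 they were −1.24 (0.00562) and −1.92 (0.0134). Each was larger in size than without the covariate. The adjusted p rose for Ppargc1a (from 0.00165) and fell for Ucp1 and Cox7a1 (from 0.0453 and 0.0638, limma). The part of muscle content in the differences of the members was not tested.

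Of 14 white adipocyte markers 10 were lower and 0 higher (13 and 0 at an unadjusted p under 0.05, limma), with list means of 10.88 to 11.24 in wild type and 10.12 to 10.52 in knockout, which do not overlap. The glucose transporter gene Slc2a4 fell by 1.50 ± 0.18 (SE), and Adipoq, the adipokine adiponectin, by 0.43 ± 0.10. Lipe, Pnpla2 and Lpl, among the lower markers, are also counted in the fuel supply list. Pparg and Cebpa are also counted among the transcription factors and Cidec in the CIDE list, so these counts are not separate. With wild-type 1 left out 6 markers were lower, with wild-type 3 left out 7, and with knockout 3 left out 4. The list mean itself differed by −0.76, and subtracting it from each array moved the difference of every gene up by that same amount. The differences were then −2.59 for Ucp1, −0.95 for Ppargc1a, −0.62 for Cox7a1, −0.59 for Pank1, −0.36 for Cidea, −0.30 for Cox8b and −0.12 for Prdm16. Cox8b lost its call in this way (adjusted p = 0.213, limma). The differences of Dio2 and Ppargc1b turned positive, at 0.70 and 0.48, as any fall smaller than the shift had to. This scaling moved the median of all genes to 0.76. The part of adipocyte content in the differences of the members was not tested.

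Epithelial markers went the other way: 9 of 12 luminal and 7 of 8 basal genes were higher and 0 lower (10 and 7 higher, and 0 lower, at an unadjusted p under 0.05, limma). Luminal list means were 8.75 to 9.21 in wild type and 9.99 to 10.20 in knockout, and Elf5, a luminal transcription factor, rose by 2.31 ± 0.27 (SE). Leaving out wild-type 3, knockout 1 or knockout 3 left 6 luminal genes higher, and 4 or 5 basal genes were higher without wild-type 3 or 1. Of 9 B and T cell markers 6 were lower and 0 higher (9 and 0 at an unadjusted p under 0.05), a count between 1 and 3 when any array was left out. Of 9 endothelial genes 2 were lower, and 0 to 2 with single arrays left out. Of 9 fibroblast genes 0 changed by limma, with 3 lower and 1 higher at an unadjusted p under 0.05. Vascular smooth muscle genes were lower in 1 and higher in 4 of 9 cases, with 2 higher when wild-type 1, wild-type 2 or knockout 3 was left out and 1 when wild-type 3 was. Acta2 and Cnn1, among the higher genes, are also counted in the basal list, so these counts are not separate. Macrophage genes were lower in 1 and higher in 1 of 8 cases, each count between 0 and 1 with single arrays left out. Sympathetic and Schwann cell genes were lower in 0 and higher in 1 of 7 cases, with 1 lower without wild-type 3, and liver genes were lower in 1 and higher in 0 of 7. Sympathetic fibres could not be followed through Th, the rate-limiting enzyme of noradrenaline synthesis, which read 3.43 to 3.59 on all arrays. The part of epithelial and lymphoid content in the differences of the members was not tested.

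**Figure D4:**
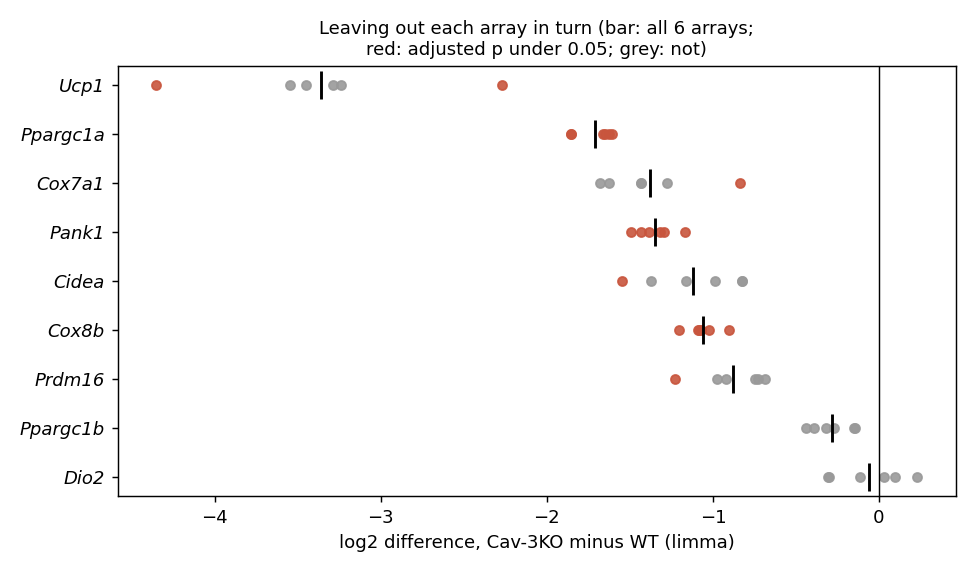
Log2 difference, Cav-3KO minus WT (x axis, limma), for each member (y axis) with all 6 arrays (black bar) and with each array left out in turn (points; red, adjusted p under 0.05; grey, not). Ppargc1a, Pank1 and Cox8b stay called in all 6 refits, Ucp1 spans −4.36 to −2.27 and is called in 2 of them, and Dio2 crosses 0.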

How the data were processed

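Per the submitters' processing notes, the authors processed the arrays with RMA, and the deposited log2 values, 1 per probe set and array, were used as given. RMA corrects background, quantile normalizes and summarises probes, so a shift of most transcripts would be removed and folds of dim sets are compressed. The sources used here give no version of it and no genome build. Of 45101 probe sets, 64 controls were left out and 45037 tested. The platform annotation named 34945 sets with 1 symbol, 932 with several and left 9160 unnamed, with symbols updated through RefSeq (GRCm38.p6). Samples were grouped by the genotype in their labels. The contrast of knockout with wild type was fitted on genotype alone (limma 3.58.1, R 4.3.3, empirical Bayes, two-sided, moderated SE), adjusted over all tested sets, threshold 0.05. The fit was tested on simulated data. Figures used matplotlib 3.10.9.

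The members and gene lists were chosen with earlier results of these data known. All members and their family counterparts are named, with up to 4 genes past the threshold of largest difference in each list and the 5 genes nearest to Ucp1; other genes were chosen after their values were seen. List counts leave out the members and genes without a probe set of their own. Alternatives were other normalizations, a filter on dim sets, another prior, array weights, the replicate block, each array left out, averaged probe sets, fewer sets, other thresholds, a muscle covariate and subtraction of the white adipocyte mean. Left-out arrays and the muscle covariate for list counts were added after seeing the data.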

Additional observations from a re-analysis of the deposited data

How the results depend on the processing

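Ppargc1a, Pank1 and Cox8b kept direction and call under all 16 settings other than the adipocyte subtraction, under which Cox8b lost its call (−0.30, adjusted p = 0.213), at adjusted p up to 0.0101, 0.0156 and 0.0262 (limma). Ucp1 kept its direction in all 16 and its call in 10, and Cox7a1, Cidea and Prdm16 passed in 4, 1 and 1. The members called lower were 3 to 5 with 1 array left out and 3 to 6 under the other settings. Over all genes, leaving out 1 array gave 606 to 1463 lower and 629 to 1718 higher calls, against 1549 and 1392 with all arrays, fewest without knockout 3. A threshold of 0.01 gave 421 lower and 446 higher genes, and 0.10 gave 2152 higher. Dio2 changed sign without wild-type 1, without wild-type 3 and without knockout 2 (0.10, 0.03 and 0.23), within a range of −0.31 to 0.23 over single arrays left out. With the white adipocyte mean subtracted, Dio2 and Ppargc1b were at 0.70 and 0.48 and 2 members counted as higher, beside 165 lower and 15178 higher genes. That subtraction adds the same amount to every gene of an array and gave each member the same standard error, 0.23, so its calls rest on that single estimate of spread. The labels do not say whether the replicate numbers pair the glands. Correlations of deviations over all probe sets were −0.05, 0.19 and −0.02, which cannot settle it. With the replicate numbers as a block 5 members were lower, Cox7a1 among them (adjusted p = 0.0329, limma), and 1449 genes were lower and 1421 higher. The SE of every member was smaller in that fit, as for Dio2 (0.12 against 0.30).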
